A study of Homo sapiens with 4 samples.

Results

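The 10 genes described here encode enzymes that reduce or oxidize carbonyl compounds: the aldo-keto reductases AKR1C1, AKR1C2, AKR1C3 and AKR1B10, the quinone reductase NQO1, and the aldehyde dehydrogenases ALDH1A1, ALDH1A3, ALDH2, ALDH3A1 and ALDH3A2. They are the 10 rows, of 58735 in the gene count table, whose gene names match these symbols. The list was chosen by known function with the measured counts and fold changes of this same comparison in view, so how its genes moved as a group is described below with no test of the list. The cells are SW1990, an established human line of pancreatic ductal adenocarcinoma. Both groups were sampled at 24 h: 2 libraries came from cells given gomisin G at 10 µM, and 2 libraries came from cells given the vehicle, whose identity the labels do not state. Gomisin G is a plant lignan of the genus Schisandra. The labels do not say whether replicates came from separate cultures, so the p-values measure the spread between these libraries, which may be technical.

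Aldo-keto reductases use NADPH to turn aldehydes and ketones into alcohols, and aldehyde dehydrogenases use NAD or NADP to turn aldehydes into carboxylic acids. NQO1 uses NADPH or NADH to reduce quinones straight to hydroquinones, without a semiquinone radical on the way. Several of these genes, NQO1, ALDH3A1 and the AKR1C genes among them, are textbook targets of the stress-responsive transcription factor NRF2, and ALDH3A1 and NQO1 are also known targets of the aryl hydrocarbon receptor. In carcinomas these enzymes are studied for their part in the clearance of lipid peroxidation products, in steroid and retinoid metabolism and in the metabolism of drugs.

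AKR1C1, AKR1C2 and AKR1C3 lie side by side on chromosome 10 and are close copies of each other, which bears on every AKR1C value below. The first 150 coding bases of each, from GENCODE release 29 transcripts on GRCh38, are shown because they let the likeness be seen directly. Capitals mark the bases that differ from AKR1C1 at the same place.
AKR1C1: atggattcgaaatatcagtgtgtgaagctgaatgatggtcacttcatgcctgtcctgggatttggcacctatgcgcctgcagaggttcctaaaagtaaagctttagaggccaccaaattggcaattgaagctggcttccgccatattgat
AKR1C2: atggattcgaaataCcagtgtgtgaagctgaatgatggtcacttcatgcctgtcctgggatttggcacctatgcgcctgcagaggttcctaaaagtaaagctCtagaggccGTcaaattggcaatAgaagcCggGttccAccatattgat
AKR1C3: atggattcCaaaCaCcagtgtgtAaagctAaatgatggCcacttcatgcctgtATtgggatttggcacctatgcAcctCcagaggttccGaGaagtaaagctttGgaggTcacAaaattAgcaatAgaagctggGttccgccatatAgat
AKR1C2 differs from AKR1C1 at 8 of these 150 bases, and AKR1C3 differs from AKR1C1 at 19. Over the whole coding sequence of 969 bases, with no gap between them, AKR1C1 and AKR1C2 were 98.0% identical, with 19 differing bases and an identical run of up to 186 bases. AKR1C1 and AKR1C3 were 91.4% identical, and AKR1C2 and AKR1C3 were 91.0% identical. Of all windows of 100 bases along its annotated transcripts, AKR1C2 shared 23.1% with transcripts of another gene, AKR1C1 16.7% and AKR1C3 1.75%. AKR1C1 and AKR1C2 are thus the hardest of the list to tell apart, and the sources used here do not state how reads matching several places were counted. The same measure gave 5.87% for ALDH2 and 1.59% for AKR1B10, and 0 shared windows for NQO1, ALDH1A1, ALDH1A3, ALDH3A1 and ALDH3A2.

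The AKR1C genes also resemble each other in front of their start sites. The stretches below run from 100 to 41 bases before each RefSeq start site (GRCh38.p14), 5′ to 3′ along the gene, and capitals mark the letters ATTGG, which are the CCAAT box read on the other strand. They are shown because the same letters recur in all 4 windows.
AKR1C1, chr10:4963315-4963374, plus strand: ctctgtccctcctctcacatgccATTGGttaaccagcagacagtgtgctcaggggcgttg
AKR1C2, chr10:5003898-5003957, minus strand: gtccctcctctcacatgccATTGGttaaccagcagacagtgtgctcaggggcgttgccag
AKR1C3, upstream start site, chr10:5048681-5048740, plus strand: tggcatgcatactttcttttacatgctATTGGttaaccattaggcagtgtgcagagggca
AKR1C3, downstream start site, chr10:5094314-5094373, plus strand: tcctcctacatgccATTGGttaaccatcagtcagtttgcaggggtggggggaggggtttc
All 4 AKR1C windows, counting both start sites of AKR1C3, held the CCAAT box in this reverse orientation, with its first base 77, 81, 73 and 86 bases before the start site in the order shown. After a shift of 4 bases, the windows of AKR1C1 and AKR1C2 were 100% identical over the 216 bases compared in their first 220, the part farther from the start site. In the remaining 80 bases, at the same shift and with no gap opened, 48 were identical. This count does not measure likeness there, because the windows fall out of step where AKR1C1 has extra bases. The CCAAT box, on either strand, was present in 34.6% of all 35116 promoter windows of the same 300 bases (250 before to 50 after the start site). Neither the antioxidant response element core TGACNNNGC nor the AP-1 letters TGACTCA or TGAGTCA occurred on either strand in any of the 9 windows found for 7 of the 10 genes. Over all promoter windows these letters occurred in 13.3% and 4.95%. The aryl hydrocarbon receptor core GCGTG, on either strand, occurred in the windows of NQO1 and ALDH1A3 and in a window of ALDH3A2. It occurred in 36.5% of all promoter windows. Sites more than 250 bases before a start site lie outside these windows and were not looked for. The windows therefore cannot show whether a gene has such an element farther away. Windows for AKR1B10, ALDH2 and ALDH3A1 were not used here.

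Total counts were 15034663 and 15245770 in the gomisin G libraries and 14580848 and 14901526 in the vehicle libraries. A count of 3 then equals 0.189 to 0.207 CPM (counts scaled to library size with edgeR's trimmed-mean factors), the upper limit that a count of 0 allows, which covers counting error only. The 2 gomisin G libraries differed from each other more than the 2 vehicle libraries did, at a chi-square of 41.7 per gene against 7.63. Expression changed with transcript length most in gomisin G replicate 1, by -0.096 log2 units per doubling of length, against slopes of 0.013 in gomisin G replicate 2 and 0.023 and 0.061 in the vehicle libraries. All 7 epithelial markers of a list were measured well enough to test, 4 with a log2 change above 0 and 3 below. None was called by edgeR, beside 1.83% of all genes tested. The unadjusted p of 2, KRT19 and MUC1, was below 0.05, beside 20.6% of all genes tested. DESeq2 called 1, where it called 6.5% of all genes to which it gave an adjusted p. KRT8 had 69351 and 58034 counts in gomisin G libraries and 95276 and 79233 in vehicle libraries, and KRT18 had 36799 and 27278 with gomisin G and 45313 and 40292 with vehicle. KRT19 went the other way, with 14662 and 11460 counts in gomisin G libraries and 8626 and 7222 in vehicle libraries (log2 change 0.68), and MUC1 had a log2 change of 0.83. The ductal keratin KRT7 was low, at 30 and 14 counts in gomisin G libraries and 14 and 13 in vehicle libraries. Summed fibroblast markers were at 8.57 and 12.0 CPM in gomisin G libraries and at 4.62 and 4.91 in vehicle libraries, carried by COL1A1 and PDGFRB, while COL1A2, LUM and THY1 had 0 counts. Summed hepatocyte markers had 0.622 and 0.631 CPM in gomisin G libraries and 0 and 0.0673 CPM in vehicle libraries, nearly all from ALB, with 7 and 10 counts with gomisin G and 0 and 1 with vehicle. Summed acinar markers were at 0.691 and 0.442 CPM in gomisin G libraries and at 0.345 and 0.269 in vehicle libraries, and summed endothelial markers at 0.207 and 0.821 with gomisin G and at 0.966 and 0.269 with vehicle. The part of these markers in the results below was not tested. Summed immune markers were at 0 and 0 CPM in gomisin G libraries and at 0.345 and 0.135 in vehicle libraries, with PTPRC and CD3E at 0 in all 4.

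Of the 10 genes, 9 had at least 1 count in some library and 8 passed the filter on low counts. With gomisin G, 2 of these 8, AKR1C3 and ALDH3A1, rose at an adjusted p below 0.05 in edgeR's quasi-likelihood test, the threshold used throughout. None of the 8 fell at that threshold, whereas 6 of the 8 had an unadjusted p below 0.05, with ALDH1A3 the one of these that was lower with gomisin G. DESeq2 called 3 of the 8, adding NQO1, and gave no adjusted p for AKR1C1. It called 6.5% of all genes to which it gave an adjusted p. Of the 8, limma's voom called 2. Across all 15721 genes tested, 1.83% were called by edgeR, 0.922% as higher and 0.903% as lower, and 20.6% had an unadjusted p below 0.05. Because the genes were listed with this comparison known, the count is a description and nothing is read from it. The median log2 change of the 8 was 0.59, with a range of -0.86 to 1.50, beside a median of 0.0092 over all genes tested. In each of the 8 the 2 gomisin G libraries and the 2 vehicle libraries did not overlap in CPM, 7 with gomisin G higher and 1 with gomisin G lower, beside 27% and 27.3% of all genes tested in these directions and 54.2% in either. For AKR1C1 and ALDH3A2 this was a near tie. Gomisin G replicate 1 had 1.243 CPM against 1.242 in vehicle replicate 1 for AKR1C1. For ALDH3A2 it had 116.39 CPM against 116.34 in vehicle replicate 2.

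**Figure D1:**
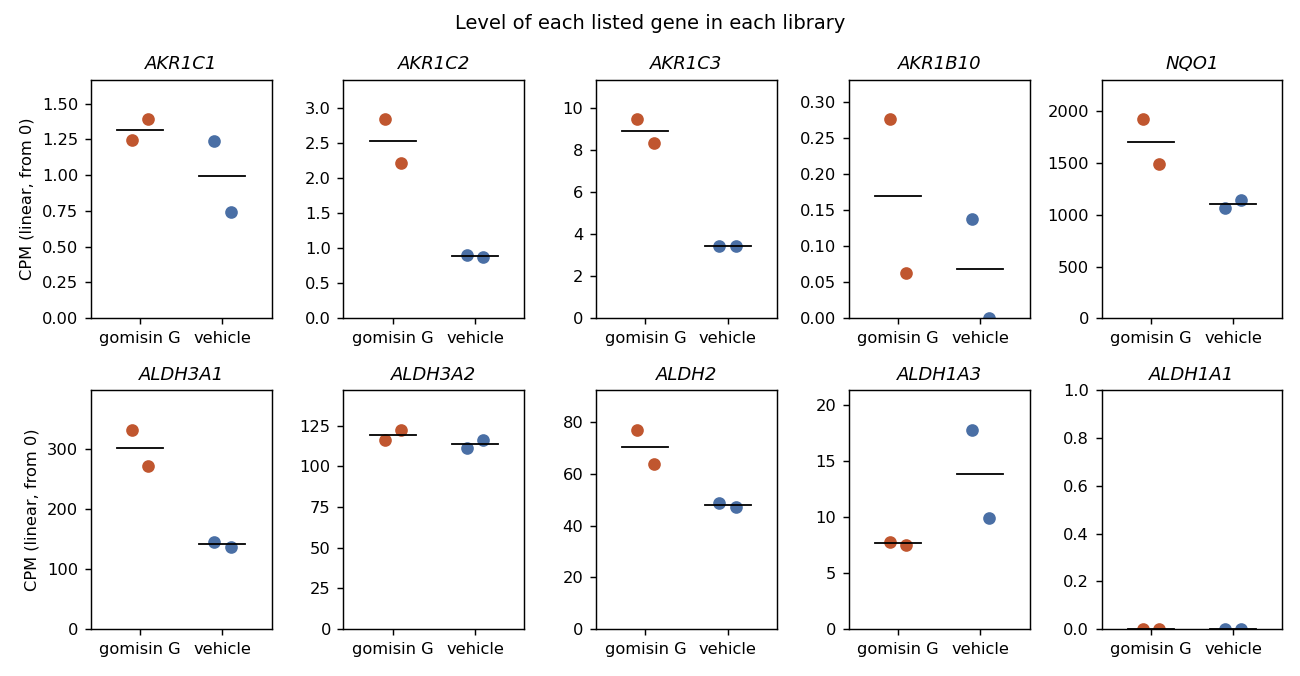
Level of each of the 10 genes in each library, in CPM on linear axes that start at 0 and differ between panels; points are libraries (2 per group) and lines are group means. Gomisin G points lie above vehicle points for AKR1C3 (8.33 and 9.46 against 3.43 and 3.45 CPM) and ALDH3A1 (272 and 332 against 138 and 145 CPM), below them for ALDH1A3, and ALDH1A1 is at 0 throughout.

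AKR1C3 was the AKR1C gene with the most counts, and it rose with gomisin G. It encodes the enzyme that makes testosterone from androstenedione and also acts as a prostaglandin F synthase. The gene lies on the plus strand at chr10:5035354-5107686. Its raw counts were 137 and 132 in gomisin G libraries and 50 and 51 in vehicle libraries, or 9.46 and 8.33 CPM with gomisin G and 3.45 and 3.43 CPM with vehicle. Both gomisin G libraries were high, the vehicle libraries lay almost on top of each other, and the groups were far apart. The means were 8.90 ± 0.800 CPM with gomisin G and 3.44 ± 0.0121 CPM with vehicle (SD, n = 2 each). This was a log2 change of 1.37 (SE 0.24), a 2.58-fold higher level with gomisin G, with an adjusted p of 0.0374 by edgeR. Without vehicle replicate 1 or vehicle replicate 2 the log2 change stayed at 1.37 and 1.36, and AKR1C3 missed the threshold in each of these fits. Over 13 alternative settings the log2 change ran from 1.27 to 1.46. In a culture measured in bulk, more cells expressing a gene and more of its RNA per cell cannot be told apart.

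AKR1C2 had few counts. It encodes a reductase that inactivates dihydrotestosterone, and its gene lies on the minus strand at chr10:4987400-5018031. It had 41 and 35 raw counts in gomisin G libraries and 13 and 13 in vehicle libraries, or 2.83 and 2.21 CPM with gomisin G and 0.897 and 0.875 CPM with vehicle. Both gomisin G libraries stood above both vehicle libraries, with the wider spread among the gomisin G libraries. Its log2 change of 1.50 (SE 0.40) was the highest estimate of the list, and the adjusted p of 0.0931 by edgeR missed the threshold.

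AKR1C1 encodes the reductase that inactivates progesterone, and its gene lies on the plus strand at chr10:4963253-4983283. It had 18 and 22 raw counts in gomisin G libraries and 18 and 11 in vehicle libraries, or 1.24 and 1.39 CPM with gomisin G and 1.24 and 0.740 CPM with vehicle. Gomisin G replicate 1 and vehicle replicate 1 were nearly level, and vehicle replicate 2 was the one low library. The log2 change was 0.41 (SE 0.46) with an adjusted p of 0.639 by edgeR. It was 0.82 without vehicle replicate 1 and 0.084 without vehicle replicate 2, so 1 vehicle library decides the size of the estimate.

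Because reads of close copies can be split among them, the AKR1C counts were also summed. AKR1C4, the liver member of the cluster, had 0 counts in all 4 libraries. The sum over AKR1C1 to AKR1C4 was 196 and 189 counts in gomisin G libraries and 81 and 75 in vehicle libraries, or 13.5 and 11.9 CPM with gomisin G and 5.59 and 5.05 CPM with vehicle. Both gomisin G sums were far above both vehicle sums, and the groups did not overlap. Tested as a single row among all genes, the summed AKR1C count rose by 1.26 on the log2 scale (SE 0.22), with an adjusted p of 0.0361 by edgeR. Without vehicle replicate 1 or vehicle replicate 2 the sum missed the threshold, and with 1 library left out its log2 change ran from 1.16 to 1.35. AKR1C1 and AKR1C2 together, without AKR1C3, had 59 and 57 counts in gomisin G libraries and 31 and 24 in vehicle libraries. Their log2 change was 1.03 (SE 0.32), with an adjusted p of 0.133 by edgeR that missed the threshold. AKR1C3 made up 69.9% and 69.8% of the summed AKR1C counts in gomisin G libraries and 61.7% and 68.0% in vehicle libraries. The exact 95% intervals of these shares, 63.0 to 76.2% and 62.8 to 76.3% with gomisin G and 50.3 to 72.3% and 56.2 to 78.3% with vehicle, overlapped. AKR1C1 made up 9.18% and 11.6% of the sum in gomisin G libraries and 22.2% and 14.7% in vehicle libraries, and these intervals overlapped as well, at 5.53 to 14.1% and 7.44 to 17.1% with gomisin G and 13.7 to 32.8% and 7.56 to 24.7% with vehicle. Both vehicle shares of AKR1C1 exceeded both gomisin G shares. All these intervals cover counting error only, and a difference in make-up between the groups was not tested.

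**Figure D2:**
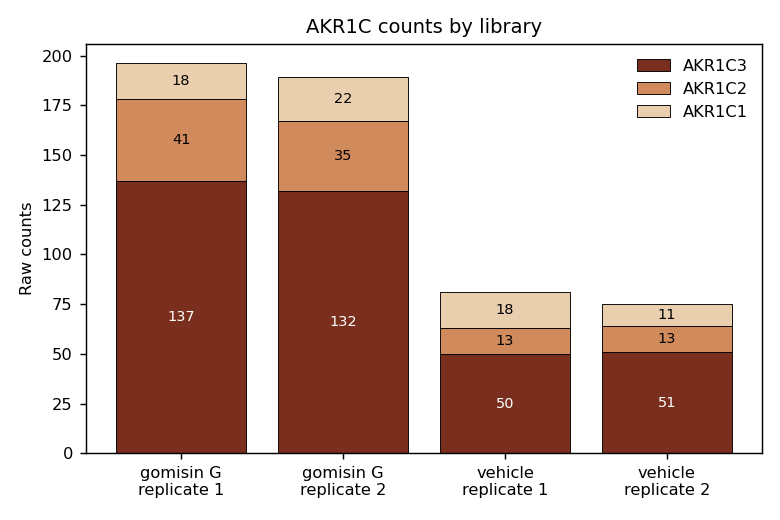
Raw counts of AKR1C3, AKR1C2 and AKR1C1 stacked in each of the 4 libraries, with the count of each gene printed in its block. The stacks reach 196 and 189 counts in gomisin G libraries and 81 and 75 in vehicle libraries, and AKR1C3 fills most of each stack.

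AKR1B10, which reduces retinaldehyde and many other aldehydes and is best known from carcinomas of smokers, was near the limit of detection. Its gene lies on the plus strand at chr7:134527592-134541408. It had 4 and 1 raw counts in gomisin G libraries and 2 and 0 in vehicle libraries, so 1 vehicle library had no count and the groups overlapped. The 5 counts with gomisin G against the 2 with vehicle give a ratio of 2.42 after scaling to library size, with an exact 95% interval of 0.396 to 25.4 that covers counting error only. No difference was detectable at this depth.

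NQO1 was the most abundant gene of the list. It lies on the minus strand at chr16:69706996-69726951. Its raw counts were 27825 and 23635 in gomisin G libraries and 15503 and 16996 in vehicle libraries, which is 0.185% and 0.155% of all counts with gomisin G and 0.106% and 0.114% with vehicle. In CPM it stood at 1922 and 1492 in gomisin G libraries and 1069 and 1144 in vehicle libraries. Both gomisin G libraries were above both vehicle libraries, but they lay farther from each other than the vehicle libraries did, with replicate 1 the higher. The means were 1707 ± 304 CPM with gomisin G and 1107 ± 52.5 CPM with vehicle (SD, n = 2 each). For NQO1 the log2 change was 0.63 (SE 0.21), a ratio of 1.54, and the adjusted p of 0.153 by edgeR missed the threshold. DESeq2 gave the same log2 change with an adjusted p of 0.0341, so the call on NQO1 depends on the tool. Over the 13 alternatives the log2 change of NQO1 ran from 0.43 to 0.80, and NQO1 missed the threshold in the fits without a vehicle library. NQO2, the related quinone reductase that does not use NADPH, stood at 113 and 89.9 CPM with gomisin G and at 86.8 and 89.8 CPM with vehicle, with a log2 change of 0.20 (SE 0.17) and an adjusted p of 0.532 by edgeR. The ratio of NQO1 to NQO2, each in CPM per kilobase of annotated exon, was 60.4 and 59.0 in gomisin G libraries and 43.8 and 45.2 in vehicle libraries, and the groups of ratios did not overlap.

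ALDH3A1 rose with gomisin G and was the aldehyde dehydrogenase of the list with the highest level. It oxidizes aromatic and medium-chain aldehydes and is known as an abundant protein of the cornea. Its gene lies on the minus strand at chr17:19737984-19748943. The raw counts were 4805 and 4302 in gomisin G libraries and 2103 and 2045 in vehicle libraries, or 332 and 272 CPM with gomisin G and 145 and 138 CPM with vehicle. Each gomisin G library was well above both vehicle libraries, and the gomisin G libraries differed from each other by less than they differed from vehicle. The means were 301.7 ± 42.7 CPM with gomisin G and 141 ± 5.27 CPM with vehicle (SD, n = 2 each). ALDH3A1 thus had a log2 change of 1.09 (SE 0.17), a 2.13-fold higher level, with an adjusted p of 0.0280 by edgeR. Without vehicle replicate 1 or vehicle replicate 2 the log2 change was 1.13 and 1.06, and ALDH3A1 missed the threshold in each of these fits. Over 13 alternative settings the log2 change ran from 0.94 to 1.23. The antisense gene AC005722.3 overlaps the end of ALDH3A1 and had 7 and 14 counts in gomisin G libraries and 2 and 2 in vehicle libraries, far fewer than ALDH3A1 itself.

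Its chromosomal neighbour ALDH3A2, the fatty aldehyde dehydrogenase that is lost in Sjögren-Larsson syndrome, lies on the plus strand at chr17:19648136-19677598. It had 1685 and 1937 raw counts in gomisin G libraries and 1614 and 1729 in vehicle libraries, or 116.4 and 122.3 CPM with gomisin G and 111.3 and 116.3 CPM with vehicle. Gomisin G replicate 1 and vehicle replicate 2 were nearly level. ALDH3A2 had a log2 change of 0.068 (SE 0.15), with an adjusted p of 0.830 by edgeR. The ratio of ALDH3A1 to ALDH3A2, each in CPM per kilobase, was 4.70 and 3.66 in gomisin G libraries and 2.15 and 1.95 in vehicle libraries, so both gomisin G ratios exceeded both vehicle ratios.

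ALDH2, the mitochondrial enzyme that clears acetaldehyde, lies on the plus strand at chr12:111766887-111817529. Its raw counts were 1114 and 1012 in gomisin G libraries and 705 and 699 in vehicle libraries, or 76.9 and 63.9 CPM with gomisin G and 48.6 and 47.0 CPM with vehicle. Both gomisin G libraries were higher, and the vehicle libraries were close together. ALDH2 had a log2 change of 0.56 (SE 0.17), a ratio of 1.47, and the adjusted p of 0.125 by edgeR missed the threshold. ALDH1B1, its close mitochondrial relative, had a log2 change of -0.096 (SE 0.15) with an adjusted p of 0.751 by edgeR. The ratio of ALDH2 to ALDH1B1 in CPM per kilobase was 0.195 and 0.152 in gomisin G libraries and 0.114 and 0.106 in vehicle libraries. AC002996.1 overlaps ALDH2 on the same strand, shares windows of 100 bases with it and had 0 counts in all 4 libraries.

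ALDH1A3 and ALDH1A1 make retinoic acid from retinaldehyde, and both are used in carcinomas as markers of cells with high aldehyde dehydrogenase activity. ALDH1A3 lies on the plus strand at chr15:100877714-100916626. It had 112 and 119 raw counts in gomisin G libraries and 257 and 147 in vehicle libraries, or 7.74 and 7.51 CPM with gomisin G and 17.7 and 9.89 CPM with vehicle. Here the gomisin G libraries were the close pair and the lower one, and vehicle replicate 1 stood well above vehicle replicate 2. The log2 change was -0.86 (SE 0.29), with an adjusted p of 0.164 by edgeR that missed the threshold. It was -0.38 without vehicle replicate 1 and -1.22 without vehicle replicate 2, so the size of the difference rests on which vehicle library is used. The antisense gene AC015712.2 overlaps ALDH1A3 and had 29 and 53 counts in gomisin G libraries and 50 and 45 in vehicle libraries. Reads of genes that overlap on opposite strands cannot be told apart unless strand was used in counting, which the sources do not state. AC015712.5 overlaps ALDH1A3 on the same strand, where strand does not help, and had 0 counts in all 4 libraries. ALDH1A1, on the minus strand at chr9:72900662-73080442, had 0 counts in all 4 libraries, which allows a level of up to 0.207 and 0.189 CPM in gomisin G libraries and 0.207 and 0.202 CPM in vehicle libraries. ALDH1A2, the remaining member of the ALDH1A family, had 7 counts in all with gomisin G and 1 with vehicle, a ratio of 6.78 with an exact 95% interval of 0.871 to 305 that covers counting error only.

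To compare levels between genes, CPM was divided by the length of annotated exon in kilobases. Long annotated isoforms lower such values where they are not used. The order in gomisin G libraries by mean was NQO1 (525), ALDH3A1 (77.0), ALDH3A2 (18.5), ALDH2 (7.24), AKR1C3 (1.96), ALDH1A3 (1.32), AKR1C2 (0.390), AKR1C1 (0.150), AKR1B10 (0.0973) and ALDH1A1 (0), all in CPM per kilobase. The order in vehicle libraries was NQO1 (340), ALDH3A1 (36.1), ALDH3A2 (17.6), ALDH2 (4.92), ALDH1A3 (2.39), AKR1C3 (0.759), AKR1C2 (0.137), AKR1C1 (0.113), AKR1B10 (0.0396) and ALDH1A1 (0). AKR1C3 thus stood above ALDH1A3 with gomisin G, at 2.09 and 1.84 against 1.34 and 1.30 CPM per kilobase. With vehicle it stood below ALDH1A3, at 0.761 and 0.757 against 3.07 and 1.71 CPM per kilobase. The other places in the order were the same in both groups, and in vehicle libraries AKR1C2 and AKR1C1 overlapped, at 0.139 and 0.135 against 0.142 and 0.0844 CPM per kilobase. The ratio of ALDH1A3 to ALDH3A1 on this scale was 0.0158 and 0.0188 in gomisin G libraries and 0.0830 and 0.0488 in vehicle libraries.

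The genes around the listed ones were then set beside them. Of 79 tested genes in 7 related lists, 2 rose with gomisin G, the reductase TP53I3 and the retinoid-responsive gene RARRES3. By edgeR 0 fell, while the unadjusted p was below 0.05 for 21, and 7 were called by DESeq2 and 2 by limma's voom. Over all genes tested, edgeR called 1.83%, and 20.6% had an unadjusted p below 0.05. DESeq2 called 6.5% of the genes to which it gave an adjusted p, and limma's voom called 264 of 15721. These shares are the background for each list below as well. The median log2 change over the 79 was 0.095, against 0.0092 over all genes tested.

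Among the other aldo-keto reductases, 6 of 10 were tested. The log2 change was above 0 in 5 and below 0 in 1, and its median was 0.14. By edgeR and by DESeq2 0 passed, and 1 had an unadjusted p below 0.05, beside 20.6% of all genes tested. That gene was AKR1B1, the aldose reductase of the polyol pathway, named here after its values were seen, at 2.69 and 2.84 CPM with gomisin G and 1.24 and 1.61 CPM with vehicle, with a log2 change of 0.95 (SE 0.35) and an adjusted p of 0.183 by edgeR. AKR1A1, an aldehyde reductase and the most abundant of this list, stood at 130.1 and 92.2 CPM with gomisin G and 79.2 and 88.1 CPM with vehicle, a log2 change of 0.41. AKR7A2, a succinic semialdehyde reductase, had a log2 change of 0.16 and AKR1E2 one of 0.069. Both turned negative when the length trend was removed, to -0.061 for AKR7A2 and -0.10 for AKR1E2. AKR1B15 and AKR1D1, like AKR1C4, had 0 counts in all 4 libraries.

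Among the other aldehyde dehydrogenases, 11 of 14 were tested, and the log2 change was above 0 in 4 and below 0 in 7, with a median of -0.096. By edgeR, DESeq2 and limma's voom 0 passed, and 4 had an unadjusted p below 0.05, beside 20.6% of all genes tested. Of these 4, ALDH4A1 and ALDH16A1 were higher with gomisin G, with log2 changes of 0.59 and 0.49, and ALDH18A1 and ALDH1L1 were lower, with -0.42 and -0.40. ALDH4A1, a mitochondrial enzyme of proline breakdown with the smallest p of this list, stood at 32.0 and 25.8 CPM with gomisin G and 20.3 and 18.0 CPM with vehicle. ALDH4A1, ALDH16A1 and ALDH1L1 were named after their values were seen. ALDH18A1, the pyrroline-5-carboxylate synthase of proline synthesis, stood at 113.6 and 124.4 CPM with gomisin G and at 160.3 and 158.1 CPM with vehicle. Both its gomisin G libraries were lower than both vehicle libraries, and its log2 change of -0.42 (SE 0.15) had an adjusted p of 0.176 by edgeR. ALDH1B1, given above, and ALDH9A1, which acts on trimethylaminobutyraldehyde in carnitine synthesis, had log2 changes of -0.096 and -0.065.

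The other carbonyl and quinone reductases were all tested. The log2 change was above 0 in 10 of the 15 and below 0 in 5, its median was 0.22, and 1 gene, TP53I3, rose by edgeR, by DESeq2 and by limma's voom. TP53I3 encodes a quinone oxidoreductase that is a known target of p53. It stood at 57.2 and 50.5 CPM in gomisin G libraries and 24.7 and 22.0 CPM in vehicle libraries, with no overlap and little spread within either group. The log2 change was 1.21 (SE 0.17), with an adjusted p of 0.0233 by edgeR. Without vehicle replicate 1 or vehicle replicate 2 TP53I3 missed the threshold, and over 13 alternative settings its log2 change ran from 1.03 to 1.29. CRYZ, which encodes the quinone reductase zeta-crystallin, stood at 210.1 and 187.3 CPM with gomisin G and 141.4 and 131.1 CPM with vehicle, and its log2 change of 0.54 (SE 0.16) had an adjusted p of 0.113 by edgeR. DCXR, a dicarbonyl and xylulose reductase, had a log2 change of 0.23 with an adjusted p of 0.573 by edgeR, and this turned to -0.10 without gomisin G replicate 1. Of the 7 alcohol dehydrogenases, 1 could be tested. That was ADH5, the glutathione-dependent formaldehyde dehydrogenase, with a log2 change of 0.059 and an adjusted p of 0.878 by edgeR, and it turned negative without gomisin G replicate 1, at -0.11, or without vehicle replicate 2.

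**Figure D3:**
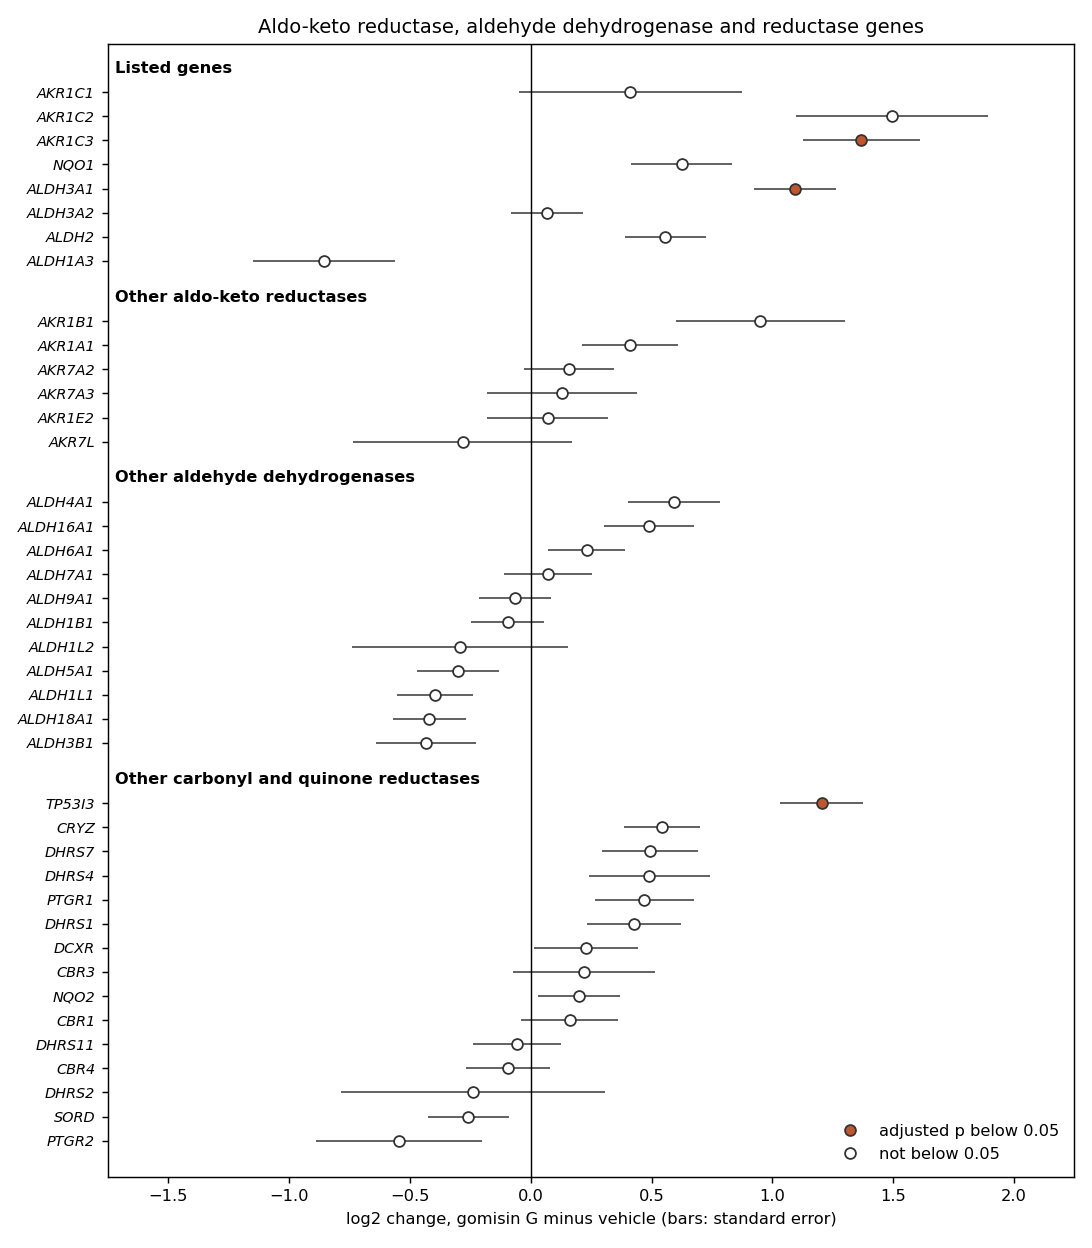
Log2 change, gomisin G minus vehicle, of each tested gene of the list and of 3 related families; bars are standard errors and filled points have an edgeR adjusted p below 0.05. AKR1C3 (1.37), ALDH3A1 (1.09) and TP53I3 (1.21) are filled, ALDH1A3 (-0.86) lies farthest to the left, and the other aldehyde dehydrogenases lie on both sides of 0.

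Retinoid genes were examined because ALDH1A1, ALDH1A3 and AKR1B10 act on retinaldehyde. Of 20 genes of retinoid supply and response, 13 were tested, 10 of them above 0 and 3 below 0 in log2 change, and 1 rose. That gene was RARRES3 (now PLAAT4), a phospholipid acyltransferase first described as induced by a retinoid. It stood at 32.7 and 25.1 CPM in gomisin G libraries and at 11.9 and 12.4 CPM in vehicle libraries. The groups were clearly separate, with gomisin G replicate 1 the highest. The log2 change was 1.25 (SE 0.20), with an adjusted p of 0.0301 by edgeR. Without vehicle replicate 1 or vehicle replicate 2 RARRES3 missed the threshold, and over 13 alternatives its log2 change ran from 1.01 to 1.43. The receptors RXRA and RARG had log2 changes of 0.042 and -0.38, with adjusted p of 0.909 and 0.244 by edgeR, and RXRA turned negative without vehicle replicate 2 or gomisin G replicate 2. RDH11, a retinol dehydrogenase, had a log2 change of 0.034.

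The genes that control NRF2, and other NRF2 targets, are given because much of the list is known as NRF2-regulated. NFE2L2, which encodes NRF2, stood at 113 and 98.3 CPM with gomisin G and at 104.6 and 102.0 CPM with vehicle, and the groups overlapped, with a log2 change of 0.032 (SE 0.16) and an adjusted p of 0.929 by edgeR. Of 9 genes of NRF2 control all were tested, 5 positive and 4 negative, with a median of 0.032. By edgeR 0 passed, 1 had an unadjusted p below 0.05 and DESeq2 called 1, beside 20.6% and 6.5% over all genes. KEAP1, the adaptor that targets NRF2 for degradation, had a log2 change of 0.14 (adjusted p of 0.627 by edgeR). SQSTM1, which binds KEAP1, stood at 602.5 and 669.6 CPM with gomisin G and 402.5 and 424.3 CPM with vehicle, with a log2 change of 0.62 and an adjusted p of 0.102 by edgeR. NFE2L1, the related factor NRF1, had a log2 change of -0.089, which turned to 0.17 without gomisin G replicate 1. Of 24 NRF2 targets outside the list, 15 were positive and 9 negative with a median of 0.095, beside 0.0092 over all genes tested. By edgeR 0 passed, although the unadjusted p of 9 was below 0.05 and 4 were called by DESeq2, beside 20.6% and 6.5% over all genes. Of these 9, 6 were higher with gomisin G, FTL, FTH1, EPHX1, UGDH and ABCC2 among them, and 3 were lower. All but FTL and FTH1 were named after their values were seen. The lower ones were HMOX1, the inducible heme oxygenase, at -0.70 on the log2 scale, TXNRD1, a thioredoxin reductase, at -0.53, and ME1, the cytosolic malic enzyme, at -0.45. HMOX1 stood at 20.1 and 17.7 CPM with gomisin G and at 33.0 and 28.2 CPM with vehicle, and its adjusted p was 0.0920 by edgeR. FTL, the ferritin light chain, stood at 3603 and 2302 CPM with gomisin G and 1313 and 1479 CPM with vehicle, with a log2 change of 1.08 and an adjusted p of 0.0786 by edgeR. FTH1, the ferritin heavy chain, and TKT, a transketolase of the pentose phosphate pathway, had log2 changes of 0.53 and 0.10, with adjusted p of 0.231 and 0.779 by edgeR.

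AKR1C3 and ALDH3A1 were called in every alternative that kept every library. Each missed the threshold in the fits without a vehicle library. Over the 13 alternatives the log2 changes were 1.27 to 1.46 for AKR1C3 and 0.94 to 1.23 for ALDH3A1. AKR1C2 had 1.31 to 1.67, NQO1 had 0.43 to 0.80 and ALDH2 had 0.41 to 0.75. Among alternatives that kept every library, NQO1 was called by DESeq2 and with the replicate block. AKR1C2 and ALDH2 were called there with the replicate block alone. Over all genes DESeq2 called 883 and the replicate block 2885, against 287 as reported. In fits without a gomisin G library the lone one is assumed to vary like the vehicle pair, so calls of single genes there are not given here. ALDH1A3 kept its negative sign over -1.22 to -0.38, and ALDH3A2 stayed near 0, at 0.032 to 0.15. None of the 8 changed sign in any alternative run, though AKR1C1 came close to 0.

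**Figure D4:**
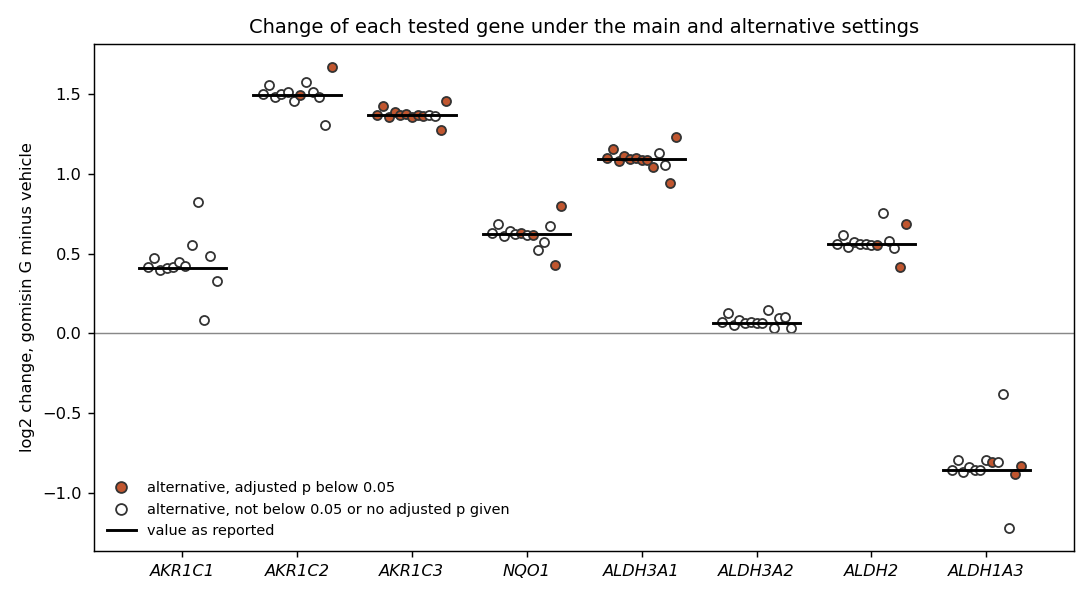
Log2 change, gomisin G minus vehicle, of each tested gene; the line is the value as reported and each point is 1 alternative setting, filled where its adjusted p is below 0.05. AKR1C3 points lie between 1.27 and 1.46 and are mostly filled, whereas AKR1C1 (0.084 to 0.82) and ALDH1A3 (-1.22 to -0.38) spread widest.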

How the data were processed

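Total RNA of 4 SW1990 libraries was sequenced after ribosomal RNA removal, per the labels' protocols. The authors deposited unnormalized counts for each gene; the submitters' processing notes name fastp, HISAT2, featureCounts and the build hg38, and versions, strand settings and the treatment of reads that match several places are not given in the sources used here. The counts in the whole-series table and in the sample tables were identical. All counts were fitted together in R 4.3.3 with edgeR 4.0.16 (low-count filter by filterByExpr, TMM factors, robust quasi-likelihood test, 2 residual degrees of freedom), and p-values were adjusted over all 15721 tested genes by Benjamini-Hochberg. CPM are TMM-scaled, and the SE is the log2 change divided by the square root of F. The 10 genes, the related lists and the alternatives (DESeq2 1.42.0, limma 3.58.1 voom, other scaling factors, filters, left-out libraries, a replicate block, removal of a length trend) were chosen with earlier results of these data known. The procedure was tested on simulated data. Beside all 10 genes, the text names from each related list the called genes and the 3 with the highest mean CPM. Gene positions are those of the deposited table, which matched GENCODE release 29 for 58724 of 58735 genes; promoter windows are from RefSeq GRCh38.p14.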

Additional observations from a re-analysis of the deposited data

How the results depend on the processing

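Over all genes, 287 were called as reported, 883 by DESeq2, 2885 with the replicate number as a block, 887 with the length trend removed, 135 to 6322 with 1 library left out, and 256 to 320 under the remaining settings. Of the listed genes 2 were called as reported, 3 by DESeq2, 6 with the replicate block and 0 to 6 with 1 library left out. Both counts of 0 came without a vehicle library, in fits where the lone vehicle library is assumed to vary like the gomisin G pair; 5 and 6 were called without gomisin G replicate 1 and 2. Of the related genes 2 were called as reported, 7 by DESeq2, 16 with the replicate block, 6 with the length trend removed and 0 to 43 with 1 library left out. The summed AKR1C change of 1.26 was 1.16 to 1.35 with 1 library left out (adjusted p of 0.120 and 0.213 without vehicle replicate 1 and 2, edgeR) and 1.03 for AKR1C1 and AKR1C2 alone. For named genes, 324 values kept direction and call, 33 gained and 8 lost the call, and 10 turned. With the length trend removed AKR7A2 turned to -0.061 and AKR1E2 to -0.10. With 1 library left out the ranges that crossed 0 were -0.11 to 0.21 for ADH5, -0.073 to 0.15 for RXRA, -0.055 to 0.35 for AKR7A2, -0.055 to 0.19 for AKR1E2, -0.10 to 0.50 for DCXR and -0.40 to 0.17 for NFE2L1; the cause was not tested.

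The labels give the groups the same replicate numbers without saying what a number marks. Deviations of same-numbered libraries from their group means correlated at r = 0.263 over 15721 genes, but with 2 pairs this does not make the libraries a pair. The replicate block gave the 6 calls AKR1C2, AKR1C3, ALDH1A3, ALDH2, ALDH3A1 and NQO1. Counts under 50 limit AKR1C1, AKR1C2 and AKR1B10; AKR1C1 and AKR1C2 were not tested under the filter of 50 counts in 2 libraries, and DESeq2 gave no adjusted p for AKR1C1.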

Other observations

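Genes that overlap the listed ones or lie within 100000 bases were looked at as well, since ALDH3A1 and NQO1, for example, have expressed neighbours. Around the AKR1C genes no neighbour outside the list had enough counts to be tested. Of 15 tested neighbours outside the list, the log2 change with gomisin G was above 0 in 7 and below 0 in 8, and the changes ran from -0.63 to 0.95. By edgeR 0 rose and 0 fell, while the unadjusted p was below 0.05 for 2, and 1 was called by DESeq2 and 0 by limma's voom. Over all genes tested, edgeR called 1.83% and 20.6% had an unadjusted p below 0.05. DESeq2 called 6.5% of those to which it gave an adjusted p, and limma's voom called 264 of 15721. MAPKAPK5-AS1, a non-coding gene beyond the end of ALDH2, had 227 and 178 counts in gomisin G libraries and 102 and 103 in vehicle libraries, with a log2 change of 0.94 (SE 0.24) and an adjusted p of 0.0862 by edgeR. MAPKAPK5 itself, which lies head to head with it, had 732 and 776 counts in gomisin G libraries and 673 and 710 in vehicle libraries, with a log2 change of 0.080.

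NFAT5, which encodes a transcription factor of the response to osmotic stress and lies beside NQO1, had 1168 and 3528 counts in gomisin G libraries and 3037 and 3872 in vehicle libraries. Gomisin G replicate 1 was the low library, and the log2 change of -0.63 had an adjusted p of 0.397 by edgeR. AKR1C6P, a pseudogene of the AKR1C cluster, had 2 and 5 counts in gomisin G libraries and 0 and 0 in vehicle libraries, too few to test. These neighbours were named after their values were seen.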
